A study of Mus musculus with 9 samples.

Results

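The members are 10 genes for enzymes that build or cap mucin-type and surface glycans, taken by symbol out of 78239 genes in the deposited count table. The list was drawn up with earlier results of these data known, so counts of its called genes are a description. All 10 were found under 1 gene ID each, and all 10 passed the filter on low counts that left 20610 genes to test. RNA carrying poly(A) tails was sequenced from epithelial cells of mice aged 8 weeks with the Lgr5-2A-eGFP allele, in which GFP marks cells that express the stem-cell receptor Lgr5. The groups, of 3 libraries each, were GFP-high cells of the colon, GFP-negative cells of the colon and cells of the small intestine, and every animal carried the reporter. At least 30000 colon cells or 50000 small intestinal cells were sorted per GFP fraction, and the labels do not say which fraction the small intestinal libraries hold. Nothing in the labels says that the libraries came from separate animals, so p-values measure only how these samples spread, which may be technical. Colon libraries of both fractions share parts of their names and may share an animal, in which case p-values over all 6 colon libraries are too small. Some small intestinal libraries share name parts with colon libraries too. The tissues may therefore be partly paired, and the main fit has no term for this.

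Mucins of the gut surface are proteins covered with O-linked sugar chains. A polypeptide GalNAc-transferase places the first sugar on serine or threonine, and the chain then takes a core structure: core 1 when galactose is added, core 2 when core 1 is branched, core 3 when N-acetylglucosamine is added to the first sugar, and core 4 when core 3 is branched. The cores are extended and capped with fucose, sialic acid or GalNAc, and the mix of cores and caps is known to differ along the gut. Levels below are in CPM, the usual depth-scaled read count, formed here from the library's total and its deposited scaling factor.

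The libraries held 86621513 to 106673547 counts. All 9 epithelial marker genes had counts in every library, with Epcam at 3017 to 6207 CPM. Lgr5 went against the labels in 1 pair of libraries, at 0.958 CPM where the label of replicate 2 says GFP-high colon and at 62.1 CPM where it says GFP-negative colon. The other GFP-high libraries, replicates 1 and 3, had 43.5 and 73.0 CPM, and the other GFP-negative libraries, replicates 1 and 3, had 2.84 and 6.28 CPM. Stem-cell markers, 10 genes that include Lgr5, summed to 1015, 247 and 1383 CPM in GFP-high colon replicates 1 to 3. In GFP-negative colon replicates 1 to 3 they summed to 361, 1348 and 242 CPM. Each direction between the colon fractions therefore rests on labels that Lgr5 and this sum go against in the replicate 2 pair. In small intestine replicates 1 to 3 Lgr5 stood at 57.9, 119.7 and 208.7 CPM, and the stem-cell markers summed to 861, 2036 and 2069 CPM. Colon against small intestine therefore also compares libraries of unlike Lgr5 level. The part of this in the members' differences was not tested. Leukocyte markers, 19 genes, summed to 3.13 to 374 CPM in GFP-high colon, 67.9 to 3032 CPM in GFP-negative colon and 17.3 to 60.3 CPM in small intestine. Colonocyte markers, 9 genes, summed to 1123 to 31637 CPM in GFP-high colon, 5057 to 38713 CPM in GFP-negative colon and 1835 to 11105 CPM in small intestine.

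Colon cells of both fractions were first set against small intestinal cells, with equal weight for each fraction. The p-values still use the fraction labels, since the spread was estimated within the 3 groups. Of the 10 members, 7 were higher in colon and none was lower (edgeR quasi-likelihood test, adjusted p under 0.05), where 8.79% of all genes tested were called, 5% higher and 3.79% lower. The 7 were St6galnac6, B3gnt6, Fut2, B3gnt7, Gcnt3, C1galt1 and Galnt12, with folds between 2.63 and 61.8. In these 7 every colon library lay above every small intestinal library, as it did in 9.49% of all genes tested. Gcnt1, B4galnt2 and Fut8 were not called. The median log2 fold change of the members was 2.02, beside -0.00030 over all genes tested. In sorted bulk samples more cells of a type and more RNA per cell cannot be told apart. Goblet cell markers, 11 genes that include Muc2, summed to 8223 to 51383 CPM in the 6 colon libraries and 2262 to 19959 CPM in small intestine. The 5 deep crypt secretory cell markers summed to 5146 to 31733 CPM in colon and 657 to 1853 CPM in small intestine. Spink4 and Agr2 count in the goblet sum as well as in this one. Paneth cell markers, 9 genes, summed to 81.1 to 5177 CPM in colon and 16395 to 26750 CPM in small intestine. The part of these cells in the members' differences was not tested.

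**Figure D1:**
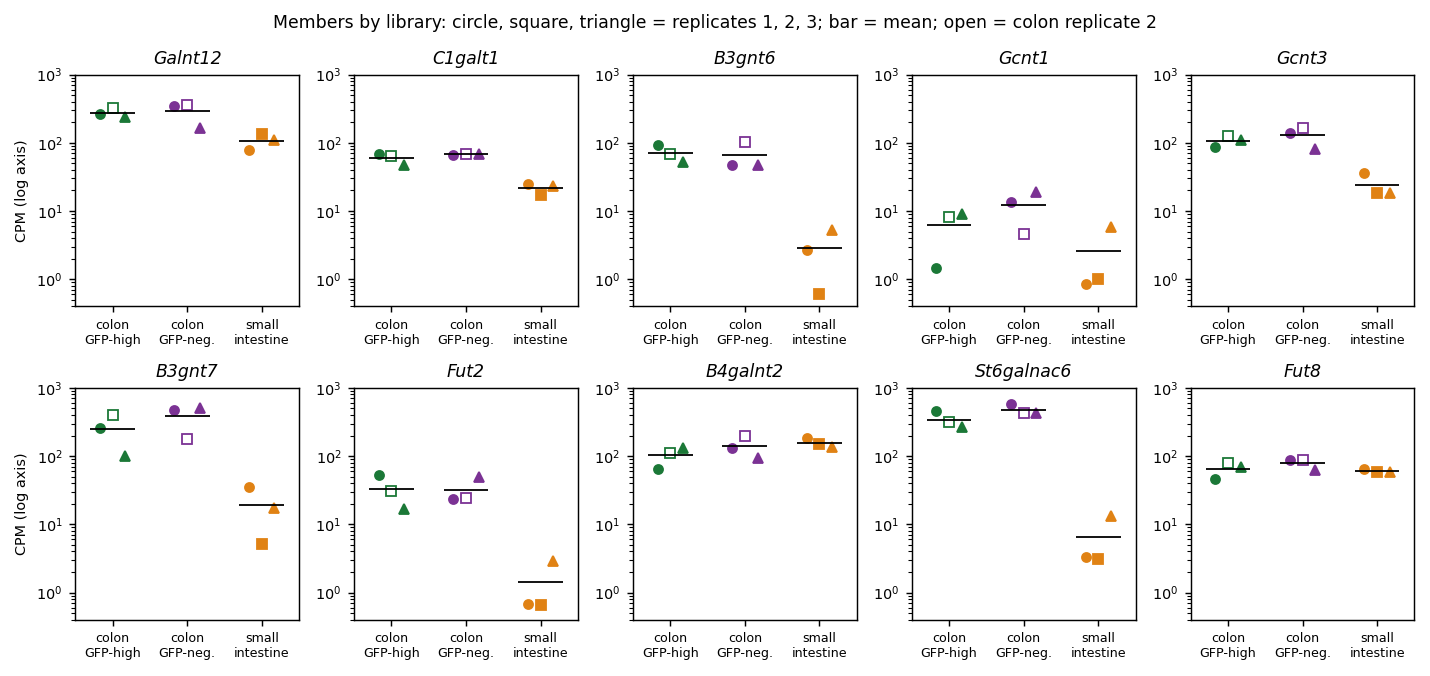
CPM of each member by library on a log axis, with GFP-high colon, GFP-negative colon and small intestine from left to right; symbols are replicates 1 to 3, bars are group means, and open symbols are the colon replicate 2 libraries whose Lgr5 level goes against the label. St6galnac6 sits between 269 and 588 CPM in the colon libraries and between 3.07 and 13.3 CPM in small intestine, while the Fut8 points overlap. For B4galnt2 the GFP-negative colon points overlap the small intestinal range, and the GFP-high points lie below it, the nearest at 132 against 134 CPM.

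The first sugar is set by the GALNT family. Galnt12 (ENSMUSG00000039774.13, GRCm38 chromosome 4, 47091909 to 47123070, plus strand) encodes a polypeptide GalNAc-transferase of the digestive tract. It stood at 265, 322 and 238 CPM in GFP-high colon, 346, 356 and 166 CPM in GFP-negative colon and 77.1, 136 and 109 CPM in small intestine. The lowest colon library, GFP-negative replicate 3, was 1.22 times the highest small intestinal one. Galnt12 averaged 282 ± 73.4 CPM in colon (SD, n = 6) and 107 ± 29.3 CPM in small intestine (n = 3), a log2 fold change of 1.39 ± 0.31 (SE, adjusted p = 0.026 in edgeR). The call was lost without GFP-high colon replicate 2 (adjusted p = 0.0597), GFP-negative colon replicate 1 (0.0712) or 2 (0.0536), or small intestine replicate 1 (0.0974) or 3 (0.112); over all its alternatives the adjusted p ran from 0.000154 to 0.145.

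Among the members that make or branch cores, B3gnt6 had the largest fold change. B3gnt6 (ENSMUSG00000074004.4, chromosome 7, 98192417 to 98199481, minus strand) encodes the enzyme that makes core 3. It had 91.5, 68.4 and 52.8 CPM in GFP-high colon and 46.7, 103 and 47.9 CPM in GFP-negative colon, against 2.70, 0.605 and 5.32 CPM in small intestine. B3gnt6 was 23.7-fold higher in colon, at 68.3 ± 23.9 CPM (SD, n = 6) against 2.88 ± 2.36 CPM (n = 3), with a log2 fold change of 4.57 ± 0.73 (SE, adjusted p = 0.00621 in edgeR). Small intestine replicate 3 held the highest of the 3 small intestinal values, and without it the log2 fold change was 5.38.

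C1galt1 (ENSMUSG00000042460.6, chromosome 6, 7844842 to 7875687, plus strand) encodes T-synthase, which makes core 1. It varied least among the colon libraries, with 68.4, 63.1 and 47.4 CPM in GFP-high colon and 66.8, 68.1 and 68.4 CPM in GFP-negative colon, against 24.6, 17.05 and 22.9 CPM in small intestine. The highest colon library had 1.44 times the lowest, GFP-high replicate 3. C1galt1 was 2.95-fold higher in colon, at 63.7 ± 8.23 CPM (SD, n = 6) against 21.5 ± 3.96 CPM (n = 3), a log2 fold change of 1.56 ± 0.21 (SE, adjusted p = 0.00321 in edgeR). Its chaperone gene C1galt1c1, whose product Cosmc is needed for active T-synthase, was called higher in colon, by 1.61 ± 0.39 on the log2 scale (adjusted p = 0.0345 in edgeR). It was 1 of 3 core and branching genes outside the members. The other two, the branching enzymes Gcnt4 (-3.43 ± 1.01, adjusted p = 0.0724) and Gcnt2 (-2.46 ± 1.27, adjusted p = 0.270), were not called in edgeR, and the median of the set was -2.46.

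Both branching enzymes among the members had estimates above 0, of which that of Gcnt3 was called. Gcnt3 (ENSMUSG00000032226.6, chromosome 9, 70031496 to 70038088, minus strand) encodes the mucin-type branching enzyme, which makes core 2 and core 4. It had 85.3, 124 and 109.9 CPM in GFP-high colon and 138, 164 and 82.3 CPM in GFP-negative colon, against 35.9, 18.2 and 18.6 CPM in small intestine. Gcnt3 was 4.81-fold higher in colon, at 117 ± 31.5 CPM (SD, n = 6) against 24.2 ± 10.1 CPM (n = 3), a log2 fold change of 2.27 ± 0.34 (SE, adjusted p = 0.00487 in edgeR). Gcnt1 (ENSMUSG00000038843.19, chromosome 19, 17326141 to 17372844, minus strand) encodes the core 2 enzyme best known from leukocytes. It had 1.45, 8.08 and 9.09 CPM in GFP-high colon, 13.5, 4.63 and 19.1 CPM in GFP-negative colon and 0.850, 0.996 and 5.84 CPM in small intestine. The tissues overlapped for Gcnt1, whose log2 fold change was 1.77 ± 0.87 (SE, adjusted p = 0.244 in edgeR) and 3.24 without small intestine replicate 3 (adjusted p = 0.108). Leukocyte markers summed to 3.13, 374 and 21.6 CPM in GFP-high colon replicates 1 to 3 and 739.7, 67.9 and 3032 CPM in GFP-negative colon replicates 1 to 3. The library with the most of this RNA, GFP-negative replicate 3, held the most Gcnt1, and the one with the least, GFP-high replicate 1, held the least. GFP-high replicate 3 had more Gcnt1 than GFP-high replicate 2 or GFP-negative replicate 2, each beside a lower marker sum. In small intestine replicates 1 to 3 the marker sums were 60.3, 17.3 and 52.3 CPM, and replicate 1, with the highest sum, had the least Gcnt1. The part of leukocytes in the level of Gcnt1 was not tested.

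Chain extension was represented by B3gnt7 (ENSMUSG00000079445.4, chromosome 1, 86302832 to 86307305, plus strand), which encodes an N-acetylglucosaminyltransferase that lengthens chains of lactosamine and keratan sulfate type. It had 259.8, 397 and 98.9 CPM in GFP-high colon and 480.0, 178 and 503 CPM in GFP-negative colon, against 35.7, 5.11 and 17.4 CPM in small intestine. B3gnt7 was 16.1-fold higher in colon, at 319 ± 166 CPM (SD, n = 6) against 19.4 ± 15.4 CPM (n = 3), a log2 fold change of 4.01 ± 0.78 (SE, adjusted p = 0.0151 in edgeR). The call was lost without small intestine replicate 3 (log2 fold change 3.95, adjusted p = 0.0709), and the log2 fold change was 4.79 without small intestine replicate 1. Among the colon libraries B3gnt7 spread 5.08-fold, the second widest spread of the members after Gcnt1 (13.2-fold). Its values stood beside colonocyte marker sums of 1123, 31637 and 13290 CPM in GFP-high colon replicates 1 to 3 and 17364, 5057 and 38713 CPM in GFP-negative colon replicates 1 to 3; their part in the spread was not tested.

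Of the 3 capping enzymes among the members, St6galnac6 had the largest fold change. St6galnac6 (ENSMUSG00000026811.19, chromosome 2, 32599709 to 32620806, plus strand) encodes a sialyltransferase that adds sialic acid in the alpha-2,6 linkage to GalNAc or N-acetylglucosamine of glycolipids and glycoproteins. It had 450.1, 311 and 269 CPM in GFP-high colon and 588, 431 and 421 CPM in GFP-negative colon, against 3.37, 3.07 and 13.3 CPM in small intestine. Every colon library was more than 20 times the highest small intestinal one. St6galnac6 was 61.8-fold higher in colon, at 412 ± 113 CPM (SD, n = 6) against 6.57 ± 5.80 CPM (n = 3), a log2 fold change of 5.95 ± 0.65 (SE, adjusted p = 0.00123 in edgeR). Without small intestine replicate 3 the log2 fold change was 6.97.

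Fut2 (ENSMUSG00000055978.6, chromosome 7, 45648591 to 45666394, minus strand) encodes the secretor fucosyltransferase, which caps chains with alpha-1,2 fucose that gut bacteria can use. It had 52.0, 30.5 and 16.8 CPM in GFP-high colon and 23.4, 24.4 and 49.3 CPM in GFP-negative colon, against 0.686, 0.664 and 2.89 CPM in small intestine. Fut2 was 23.1-fold higher in colon, at 32.7 ± 14.6 CPM (SD, n = 6) against 1.41 ± 1.28 CPM (n = 3), a log2 fold change of 4.53 ± 0.73 (SE, adjusted p = 0.00639 in edgeR) that was 5.58 without small intestine replicate 3.

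B4galnt2 was the capping enzyme among the members that was not called. B4galnt2 (ENSMUSG00000013418.9, chromosome 11, 95865943 to 95914891, minus strand) encodes the enzyme that adds GalNAc to sialylated galactose to form the Sda antigen. It had 64.1, 111 and 132 CPM in GFP-high colon, 131, 194 and 92.2 CPM in GFP-negative colon and 183, 149 and 134 CPM in small intestine. Of the 6 colon libraries, 5 lay below all small intestinal ones and GFP-negative replicate 2 lay above them. The log2 fold change was -0.38 ± 0.29 (SE, adjusted p = 0.460 in edgeR), within the spread between libraries.

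Fut8 (ENSMUSG00000021065.17, chromosome 12, 77238125 to 77476338, plus strand) encodes the fucosyltransferase of the N-glycan core and so acts outside the mucin-type pathway. It had 45.7, 79.6 and 69.8 CPM in GFP-high colon, 87.3, 86.6 and 62.7 CPM in GFP-negative colon and 65.2, 58.1 and 57.8 CPM in small intestine. The small intestinal values lay inside the colon range, and the log2 fold change of 0.24 ± 0.22 (SE, adjusted p = 0.531 in edgeR) did not exceed the spread between libraries.

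**Figure D2:**
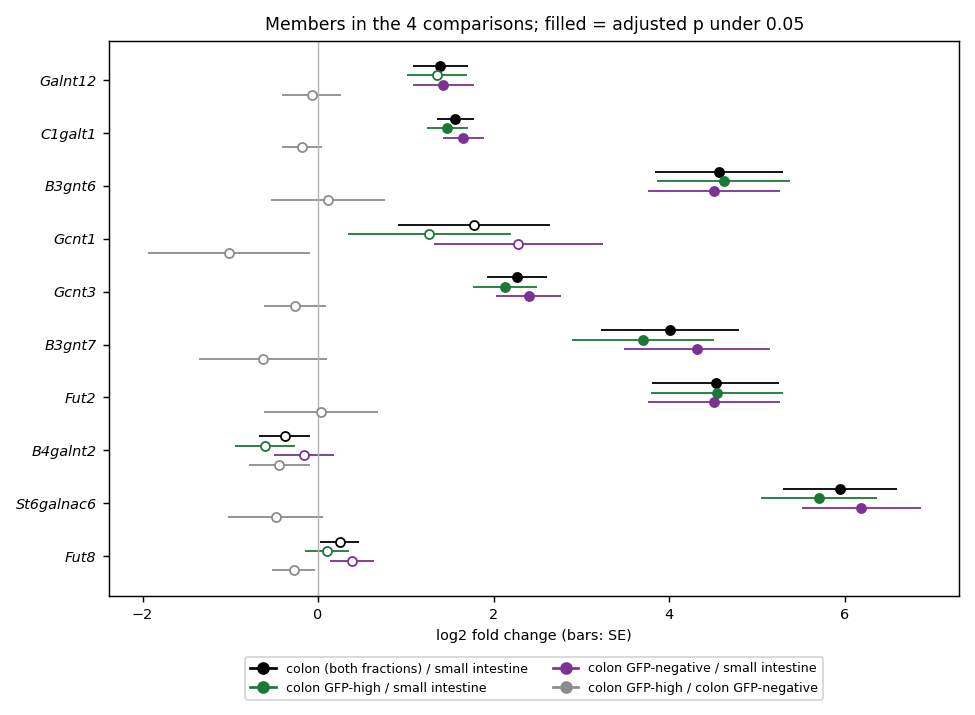
Log2 fold change of each member with its standard error in the 4 comparisons, filled where the adjusted p is under 0.05. GFP-high and GFP-negative colon over small intestine stand at 5.71 and 6.19 for St6galnac6, 1.27 and 2.28 for Gcnt1 and -0.60 and -0.16 for B4galnt2, and no member is filled for GFP-high over GFP-negative.

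Each colon fraction was also compared with small intestine on its own; both comparisons use the same small intestinal libraries. In GFP-high colon 6 members were called higher, where 3.94% of all genes tested were, and in GFP-negative colon 7 were, where 3.95% were. Galnt12 made the difference, with a log2 fold change of 1.36 ± 0.34 in GFP-high colon (adjusted p = 0.0553 in edgeR) and 1.43 ± 0.34 in GFP-negative colon (adjusted p = 0.0461). The GFP-negative call of Galnt12 held in 1 of 9 exclusions of a single library, the one without GFP-negative colon replicate 3, and was lost in 13 of 21 alternatives. The GFP-high call of B3gnt7 held in 4 of 9 such exclusions, and was lost without GFP-high colon replicate 1 or 2, GFP-negative colon replicate 1, or small intestine replicate 2 or 3 (adjusted p from 0.0609 to 0.122). For Galnt12 the difference between the fractions' estimates is the comparison of the fractions given next, in which Galnt12 was not called. B3gnt7 had 3.70 ± 0.81 and 4.32 ± 0.83, and C1galt1 had 1.47 ± 0.23 and 1.66 ± 0.23, in GFP-high colon and GFP-negative colon over small intestine. Without both colon replicate 2 libraries, 3 members, B3gnt6, Fut2 and St6galnac6, were called in GFP-high colon and 6 in GFP-negative colon, where Galnt12 was the one lost. For GFP-high colon the calls also fell to 4 without small intestine replicate 3, which left B3gnt6, C1galt1, Fut2 and St6galnac6. Over both fractions together, leaving the pair out gave 6 calls, with Galnt12 lost (adjusted p = 0.0949).

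GFP-high colon cells were compared with GFP-negative ones to ask whether the enzymes go with the stem-cell reporter. No member was called in edgeR (adjusted p = 1 for all 10, and none at an unadjusted p under 0.05), and no member's groups were free of overlap, as was the case for 4.41% of all genes tested. Over all genes 0% were called in edgeR (226, or 1.1%, at an unadjusted p under 0.05), while limma-voom called 0 and DESeq2 called 1. The members' log2 fold changes ran from -1.01 ± 0.92 (SE) for Gcnt1 to 0.11 ± 0.65 for B3gnt6, with 8 of 10 below 0 and a median of -0.27, beside -0.02 over all genes tested. St6galnac6 had -0.48 ± 0.54, B3gnt7 -0.62 ± 0.73, B4galnt2 -0.44 ± 0.34 and Fut8 -0.28 ± 0.25. The sign of B3gnt6, Fut2 or Galnt12 turned when some single libraries were left out, and that of Galnt12 also with total-count scaling (0.059). Without both colon replicate 2 libraries the members again had no call, in edgeR or in DESeq2, in which 700 genes were called. In edgeR Gcnt1 then had -1.64, B3gnt7 -1.46 and B3gnt6 0.61, B4galnt2 had -0.19 and Galnt12 -0.026, and Fut2 turned to -0.080. The remaining 4, St6galnac6, Fut8, C1galt1 and Gcnt3, had -0.49, -0.38, -0.23 and -0.18, and the adjusted p of the 10 members ran from 0.785 to 0.999. In counts simulated with these libraries' spread the fit called 24% of genes changed 4-fold between the colon fractions, so changes of that size could go uncalled.

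Per length of transcript the members kept different orders in the tissues. RPKM values, which divide CPM by the gene length in kilobases, are used here so that genes can be set beside each other. In colon Galnt12 came first at 123 ± 32.1 RPKM (SD, n = 6), then St6galnac6 at 85.5 ± 23.5, B3gnt7 at 77.2 ± 40.1 and B4galnt2 at 70.2 ± 25.6 RPKM, each of which overlapped its neighbour in this order. B3gnt6 at 28.8 ± 10.1 and Gcnt3 at 27.3 ± 7.32 RPKM also overlapped, while every Gcnt3 value lay above every C1galt1 value (10.5 ± 1.35 RPKM). Fut8 at 9.10 ± 2.03, Fut2 at 6.02 ± 2.68 and Gcnt1 at 1.62 ± 1.10 RPKM closed the order, each overlapping its neighbour. In small intestine B4galnt2 came first at 90.1 ± 14.5 RPKM (SD, n = 3) and took 55.7% of the summed RPKM of the members, against 15.97% of that sum in colon. The share also moves with the levels of the other members, and B4galnt2 itself was not called between the tissues. Galnt12 followed at 46.9 ± 12.8 and Fut8 at 7.64 ± 0.532 RPKM, each clear of the member before it. Gcnt3 (5.64 ± 2.34), B3gnt7 (4.69 ± 3.72) and C1galt1 (3.53 ± 0.650) overlapped in turn, and below them St6galnac6 (1.36 ± 1.20), B3gnt6 (1.21 ± 0.997), Gcnt1 (0.445 ± 0.493) and Fut2 (0.260 ± 0.235 RPKM) overlapped in turn.

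**Figure D3:**
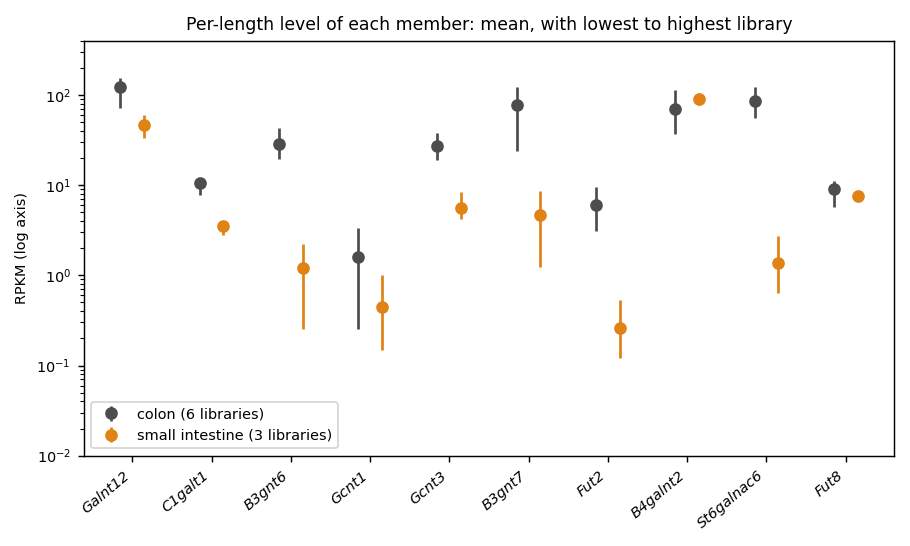
Mean RPKM of each member on a log axis in colon (6 libraries) and small intestine (3 libraries), with lines from the lowest to the highest library. B4galnt2 and Fut8 have overlapping lines in the tissues, and St6galnac6 is at 85.5 RPKM in colon and 1.36 RPKM in small intestine.

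Transcripts of the core 3 and core 1 synthases stood in different ratios. B3gnt6 over C1galt1, both in RPKM, was 3.43, 2.79 and 2.86 in GFP-high colon and 1.80, 3.88 and 1.80 in GFP-negative colon, against 0.282, 0.0912 and 0.596 in small intestine. The core 3 synthase was thus the higher of the pair in all 6 colon libraries and the lower in all 3 small intestinal ones. Gcnt3 over C1galt1 was 1.77, 2.79 and 3.28 in GFP-high colon, 2.93, 3.41 and 1.70 in GFP-negative colon and 2.07, 1.52 and 1.15 in small intestine, where the tissues overlapped. These ratios were formed after the levels were seen and are given without a test.

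The names of the libraries carry tags, and in the tags that hold both tissues the members' differences kept their direction but not their size. In the libraries with tag 2_7, 2 of colon and 2 of small intestine, colon minus small intestine in log2(CPM + 0.5) was 7.12 for St6galnac6, 5.13 for B3gnt6, 4.91 for Fut2 and 4.63 for B3gnt7. In the pair with tag 30_5, GFP-high colon replicate 3 and small intestine replicate 3, it was 4.29, 3.19, 2.36 and 2.47 in the same order of genes. Gcnt3 had 2.06 under tag 2_7 and 2.53 under tag 30_5, C1galt1 had 1.70 and 1.03, and Galnt12 had 1.56 and 1.12. B4galnt2 had -0.84 and -0.02. In tag 30_5 the colon library was the lowest colon library for St6galnac6, B3gnt7, Fut2 and C1galt1, and the small intestinal library held the top value among the 3 for St6galnac6, B3gnt6, Fut2 and Gcnt1. Car1, a carbonic anhydrase of colonocytes, was 16.2 CPM in that small intestinal library against 2.44 and 2.97 CPM in small intestine replicates 1 and 2. The 9 colonocyte markers together, Car1 among them, did not follow this order. They summed to 11105, 1835 and 2344 CPM in small intestine replicates 1 to 3. Tag 27_6 holds colon libraries only. With the tag as a term in edgeR 4 of the 7 calls remained (B3gnt6, C1galt1, Gcnt3 and St6galnac6), with adjusted p of 0.0548 for Fut2, 0.103 for B3gnt7 and 0.145 for Galnt12. What the tags stand for is not given in the sources used here.

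**Figure D4:**
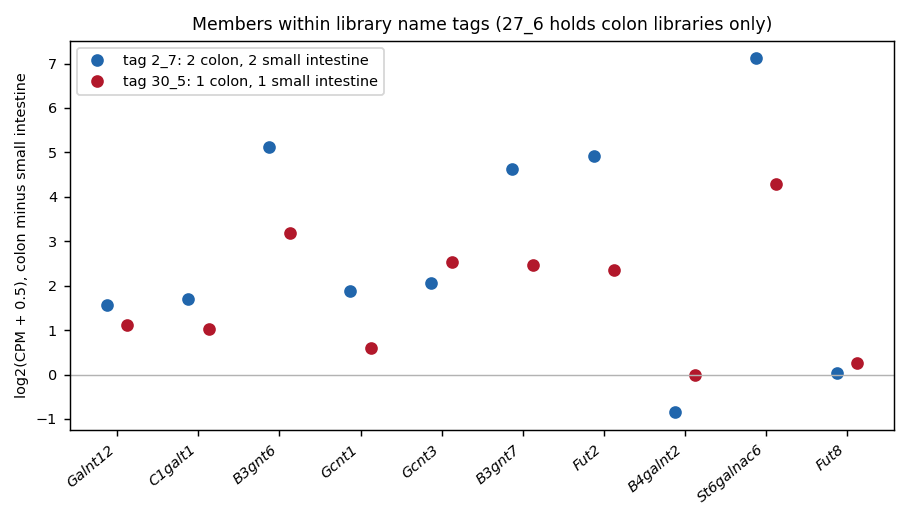
Difference in log2(CPM + 0.5), colon minus small intestine, of each member within the tag 2_7 (2 libraries of each tissue) and the tag 30_5 (1 of each). The 7 members called over all libraries are above 0 in both tags, and St6galnac6 is at 7.12 and 4.29.

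Among wider genes of the pathway, in 9 sets without the members, 24 of 74 genes tested were higher in colon and 2 were lower, with a median log2 fold change of 1.11. Of the glycosyltransferases among them, 13 of 48 were higher and 2 lower, with a median of 0.76. The sets were chosen with earlier results of these data known. Over all genes tested 5% were called higher and 3.79% lower; no enrichment was tested. Of 13 genes that supply activated sugars 8 were higher and none lower, with a median of 1.17. The largest of the 8 by fold were 3 genes of sialic acid supply. Slc35a1, the Golgi transporter of CMP-sialic acid, had a log2 fold change of 3.17 ± 0.35 (SE), Nans, which condenses the sialic acid precursor, 2.80 ± 0.34, and Gne, the entry enzyme of its synthesis, 2.14 ± 0.33 (adjusted p from 0.00128 to 0.00542 in edgeR). The other 5 were Uap1, Slc35a2, Slc35a3, Gfus and Fpgt, which make or carry other activated sugars, with log2 fold changes of 1.57, 1.24, 1.17, 1.15 and 1.02. Nans averaged 990.4 ± 253 CPM in colon (SD, n = 6) and 141 ± 38.0 CPM in small intestine (n = 3).

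Of 12 sialyltransferase genes tested 3 were higher in colon and none lower. St6galnac4, a close relative of St6galnac6, had a log2 fold change of 5.33 ± 0.44 (SE), St6gal1, which sialylates N-glycans, 5.63 ± 0.85, and St3gal6 1.81 ± 0.33 (adjusted p from 0.000346 to 0.0109 in edgeR). Of 11 extension genes 3 were higher and none lower, namely B3galt5, which makes type 1 chains (7.39 ± 0.40), B3gnt5, which starts the lacto-series glycolipids (4.12 ± 0.31), and B4galt4 (1.75 ± 0.24), with adjusted p from 3.78e-05 to 0.00321 in edgeR. B3galt5 was at 71.4 to 159 CPM in the 6 colon libraries and at 0.430 to 0.960 CPM in small intestine.

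Of 6 fucosyltransferase genes 2 were higher in colon and none lower. Fut4, an alpha-1,3 fucosyltransferase, had 1.71 ± 0.29 on the log2 scale (adjusted p = 0.00792 in edgeR). Fut9 had 3998 counts in colon and 2 in small intestine, a ratio of 1060 (95% exact Poisson interval 293 to 8740, counting error only; adjusted p = 0.00462 in edgeR). Of 6 other capping genes Abo, the blood group transferase (8.45 ± 0.99), and A4gnt (5.03 ± 0.73) were higher in colon, while B4galnt1, the GM2 ganglioside synthase, was lower by a log2 fold change of -1.42 ± 0.17 (adjusted p from 0.00165 to 0.00434 in edgeR). B4galnt1 averaged 125 ± 16.7 CPM in colon (SD, n = 6) and 335 ± 30.1 CPM in small intestine (n = 3).

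Of 10 initiation genes tested Galnt5 (2.77 ± 0.48) and Galnt7 (1.02 ± 0.27) were higher in colon and Galnt2 (-0.86 ± 0.22) was lower, with adjusted p of 0.009, 0.0488 and 0.0484 in edgeR. Of 6 sulfotransferase genes Chst4 was higher (3.32 ± 0.49, adjusted p = 0.00447) and none was lower. Of the mucin backbones 7 were tested, and Muc1 (4.24 ± 0.67) and Muc2, the gel-forming mucin of goblet cells (3.47 ± 0.70), were higher in colon (adjusted p = 0.00613 and 0.0169 in edgeR). Muc2 had 2341, 1575 and 1021 CPM in GFP-high colon, 3347, 1631 and 1838 CPM in GFP-negative colon and 369, 61.2 and 93.9 CPM in small intestine. No gene of the 9 sets was called between the colon fractions in edgeR.

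**Figure D5:**
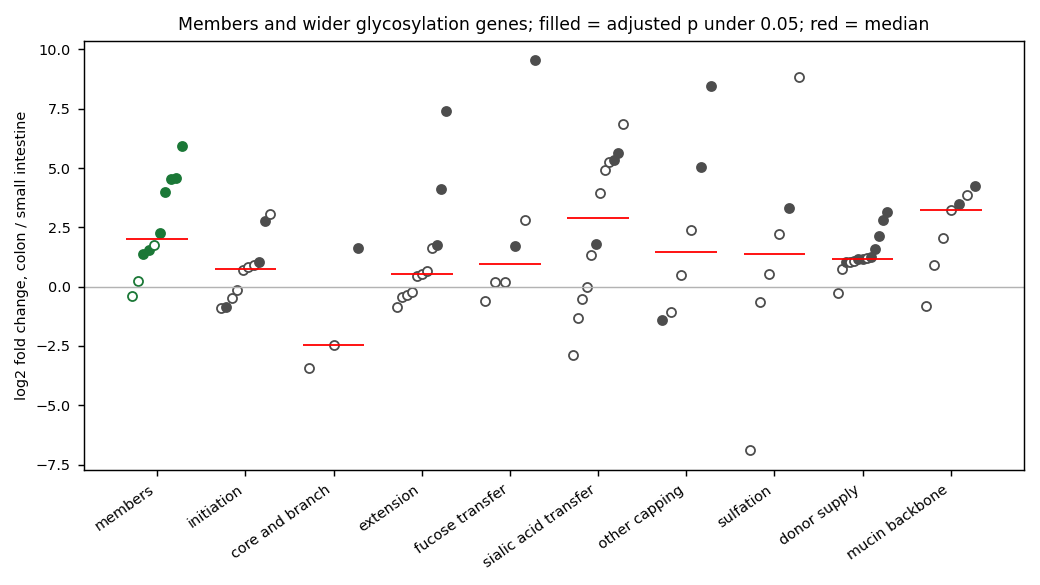
Log2 fold change, colon over small intestine, of the 10 members and of the tested genes of 9 wider sets, one point per gene (fitted values, which for genes near 0 counts in small intestine depend on the prior count), filled where the adjusted p is under 0.05, with set medians as lines. Of the members 7 are filled and above 0, and of the wider genes 24 are filled above 0 and 2 below.

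The genes nearest in pattern to the member with the largest increase and the one with the lowest estimate were sought among all genes tested, by the root-mean-square difference of centred log2(CPM + 0.5) over the 9 libraries. For St6galnac6 they were Gna14 (0.516), Thbs4 (0.528) and Nxpe2 (0.530), beside its own standard deviation of 3.12, which includes its difference between the tissues. For B4galnt2 they were Cebpg (0.143), Map3k7 (0.144) and Crk (0.149), beside a standard deviation of 0.490. These genes were picked as the nearest of 20610, so small differences follow from the choice.

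The promoter window, 250 bases before to 50 after the transcript start, was read from RefSeq (GRCm38.p6) for 6 members; Galnt12, B3gnt6, Gcnt3 and Fut2 are not shown. Gcnt1 and Fut8, with 3 and 4 alternative starts, are described but not printed. The windows of C1galt1, B3gnt7 and St6galnac6, which were higher in colon together, are printed with that of B4galnt2, which was not. Capitals mark matches on either strand to the words TTTATG and TTTATT and TTTACG, letters of the type bound by CDX factors of the intestine, and to CAAAGT, of the type bound by HNF4.
C1galt1 (chr6:7844974-7845273, plus strand): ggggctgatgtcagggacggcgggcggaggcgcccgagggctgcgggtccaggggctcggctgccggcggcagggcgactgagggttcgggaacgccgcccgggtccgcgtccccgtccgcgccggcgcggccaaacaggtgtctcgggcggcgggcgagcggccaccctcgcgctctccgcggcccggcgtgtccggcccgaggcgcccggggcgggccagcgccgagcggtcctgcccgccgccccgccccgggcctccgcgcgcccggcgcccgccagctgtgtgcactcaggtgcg
B3gnt7 (chr1:86302971-86303270, plus strand): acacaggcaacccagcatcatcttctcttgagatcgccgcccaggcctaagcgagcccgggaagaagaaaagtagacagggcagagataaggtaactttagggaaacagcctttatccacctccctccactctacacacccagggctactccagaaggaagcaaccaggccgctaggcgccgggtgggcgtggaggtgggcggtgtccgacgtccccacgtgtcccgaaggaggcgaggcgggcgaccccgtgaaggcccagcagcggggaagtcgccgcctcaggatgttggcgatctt
St6galnac6 (chr2:32599459-32599758, plus strand): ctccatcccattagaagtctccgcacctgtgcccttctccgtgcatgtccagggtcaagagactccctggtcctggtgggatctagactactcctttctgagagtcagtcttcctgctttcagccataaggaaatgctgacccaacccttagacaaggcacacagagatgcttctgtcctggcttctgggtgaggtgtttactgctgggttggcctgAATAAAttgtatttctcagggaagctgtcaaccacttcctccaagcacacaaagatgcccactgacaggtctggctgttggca
B4galnt2 (chr11:95914822-95915121, minus strand): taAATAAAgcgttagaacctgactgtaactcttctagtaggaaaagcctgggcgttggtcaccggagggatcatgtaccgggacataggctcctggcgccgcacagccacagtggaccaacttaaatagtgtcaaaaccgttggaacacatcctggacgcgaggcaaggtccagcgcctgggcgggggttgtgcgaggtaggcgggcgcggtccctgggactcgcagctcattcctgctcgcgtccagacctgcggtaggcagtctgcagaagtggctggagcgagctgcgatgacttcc

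The printed windows differed in base composition. That of C1galt1 was 82.7% G or C with 52 CG pairs and that of B3gnt7 62.0% with 21, both without a match. That of St6galnac6 was 52.0% G or C with 2 CG pairs and held 1 TTTATT in reverse complement at position -33 from the start, and that of B4galnt2 was 59.0% with 21 CG pairs and 1 TTTATT in reverse complement at -248. The 4 windows of Fut8 held 2 TTTATT and 2 CAAAGT in all, and the 3 windows of Gcnt1 held 1 TTTATG and 1 TTTATT. No matches overlapped. The median over all 32851 windows was 52.7% and 7 CG pairs, and 29.9% of them held at least 1 of the CDX-type words and 14.4% held CAAAGT. A match is a description of letters and not a site.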

How the data were processed

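The submitters' processing notes name mm10, edgeR, STAR, Subread and featureCounts, with no versions. Strand setting and annotation release: not given in the sources used here. Per the file headers, the authors' table gives raw counts per gene, log2 values of CPM, RPKM and TPM, gene lengths and a TMM factor per library, a ratio. Recomputing log2 CPM gave the deposited values within 5.51e-14; only counts entered tests.

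Counts were fitted in R 4.3.3 with edgeR 4.0.16: filterByExpr, TMM, 1 quasi-likelihood fit of all 9 libraries, Benjamini-Hochberg adjustment over 20610 genes, calls at 0.05. CPM and RPKM use the deposited factors. Alternatives used DESeq2 1.42.0 and limma 3.58.1, other filters and scalings, blocks and left-out libraries. On simulated counts for 19668 genes the fit called 59% of genes changed 4-fold for colon against small intestine and 91% of those changed 16-fold. Between replicates the mean chi-square per gene was at least 457, so none was a repeat deposit. A total of 3 counts makes 0.0232 to 0.0411 CPM, so the spread between libraries set the precision.

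Members and lists were chosen with earlier results of these data known. All members are named. Of the wider sets up to 3 called genes per set and direction are named, by size of the log2 fold change. Named beyond this rule are the other called genes of sugar supply and the uncalled Gcnt4 and Gcnt2. Overlapping genes of the annotation, on either strand, had at most 2.08 CPM where the members had at least 5.11. Positions are those of GENCODE M21 on GRCm38. Protein sequences were not used here. Tsta3, Fuk and Muc3 were listed but not matched by symbol.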

Additional observations from a re-analysis of the deposited data

Results flagged for a closer look

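C1galt1 in GFP-high colon replicate 3 stood at 47.4 CPM, apart from the other 5 colon libraries, which had 63.1 to 68.4 CPM. Its distance from the next library was most of the range of the 6. Chance alone marks about 1 in 20 such sets, and 10 members were checked. The value lay above all small intestinal libraries, and without this library the log2 fold change of C1galt1 in colon over small intestine was 1.66 (adjusted p = 0.00579 in edgeR), against 1.56 with it.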

How the results depend on the processing

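The comparison of all colon libraries with small intestine called 1812 genes, and the members' 7 calls there held in DESeq2, in limma-voom, with RLE or total-count scaling and with both other filters. The signs of the 10 members there held in all 20 alternatives. The genes called there were 3618 in DESeq2, 895 with the replicate block, 500 with the tag as a block (4 members), 1089 without both colon replicate 2 libraries and 2845 in DESeq2 without them, and ran from 991 to 1787 without single libraries, with 5 to 7 members called; 991 was without small intestine replicate 3, 1014 without small intestine replicate 1 and 1056 without GFP-negative colon replicate 1. For GFP-high colon against small intestine, with 1173 genes and 6 members called, these counts were 2713 in DESeq2, 508 with the replicate block (4 members), 437 with the tag block (2 members), 508 without the replicate 2 pair (3 members) and 1879 in DESeq2 without it, and 564 to 1375 without single libraries, with 4 to 7 members. For GFP-negative colon against small intestine, with 1166 genes and 7 members, they were 2870 in DESeq2, 532 with the replicate block (4 members), 236 with the tag block (1 member, St6galnac6), 895 without the colon replicate 2 pair and 3148 in DESeq2 without it (8 members, with Gcnt1 at an adjusted p of 0.0347), and 531 to 1078 without single libraries, with 5 to 7 members. Between the colon fractions the count was 0 in edgeR in each setting run, 1 in DESeq2 and 700 in DESeq2 without the pair, with no member among them.

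Signs that turned were as follows. Between the fractions Fut2 had 0.03 and turned to -0.029 in limma-voom, to -0.080 in edgeR and -0.12 in DESeq2 without the replicate 2 pair, and ran from -0.46 to 0.48 without single libraries. Galnt12 turned to 0.059 with total-count scaling and ran from -0.35 to 0.10 without single libraries. B3gnt6 turned to -0.040 without GFP-negative colon replicate 3 and GFP-high colon replicate 2, and ran from -0.13 to 0.58 without single libraries. These 2 libraries had leukocyte marker sums of 3032 and 374 CPM. GFP-negative colon replicate 1, which was kept, had 739.7 CPM. For GFP-high colon over small intestine Fut8 turned to -0.064 in edgeR and -0.049 in DESeq2 without the replicate 2 pair. Fut8 turned to -0.023 without GFP-negative colon replicate 3 and GFP-high colon replicate 2, and ran from -0.065 to 0.33 without single libraries. For GFP-negative colon over small intestine B4galnt2 turned to 0.10 without the same 2 libraries and ran from -0.47 to 0.061 without single libraries. The cause of these shifts was not tested. The setting without GFP-negative colon replicate 3 and GFP-high colon replicate 2 was chosen after seeing the data, as was DESeq2 without the replicate 2 pair. A fit of only the groups compared cannot differ for all colon against small intestine, since all 9 libraries enter it.

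Whether replicate numbers pair the libraries was not settled. Of 9 same-numbered pairs 2 had deviations correlated above 0.1, and the range was -0.65 to 0.34. The lowest value was that of the colon replicate 2 pair, in which Lgr5 goes against the labels. These correlations cannot decide the question, because deviations from a mean of 3 libraries are tied to each other. With the replicate block, Galnt12 had an adjusted p of 0.0526 for all colon over small intestine and the other 6 calls held.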
